A study of Mus musculus with 2 samples.

Results

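The 100 most abundant long intergenic noncoding RNA (lincRNA) genes on the autosomes were described in mouse embryonic stem cells that lack Dgcr8. The genes were chosen by their measured level. Rows of both count tables with the GENCODE M21 biotype lincRNA were ranked by mean CPM (counts scaled to a library total of 1000000) over both libraries. The imprinted and host transcripts Meg3, Rian, Mirg and H19, Gas5, the Snhg genes and microRNA host genes named by number were left out by name. Of 2134 autosomal lincRNA genes, 14 were left out in this way, 9 of which would have ranked among the first 100, and 2120 were ranked. The tables held 43629 genes in all. Since the level chose the members, the levels below are a description and carry no test.

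The series held 1 group of 2 libraries, replicates A and B. Both came from embryonic stem cells of a 129/Ola background at passage 7, with the tissue given as blastocyst and the genotype as a Dgcr8 knockout made by paired CRISPR/Cas9. The titles carry the codes KO2 and d5, which the labels do not explain, and whether both libraries stem from 1 clone or from separate cultures is not stated. Polyadenylated RNA was sequenced in reverse-stranded TruSeq libraries. No wild-type library was analysed here, so nothing below is an effect of the knockout, and differences between A and B are differences between libraries.

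LincRNAs are transcribed by RNA polymerase II from their own promoters, are usually spliced and polyadenylated, and code for no known long protein. Some stay in the nucleus as scaffolds of nuclear bodies, some bind proteins or microRNAs in the cytoplasm, and for many no function is known. Dgcr8 binds RNA for the nuclease Drosha, and as a complex they cut hairpins out of primary microRNA transcripts, several of which are themselves annotated as lincRNAs. In embryonic stem cells a number of lincRNAs, among them the Platr (pluripotency-associated transcript) genes, are known for falling silent when the cells differentiate.

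Library A held 27872396 counts and library B 30327146. All 6 pluripotency markers (Pou5f1, Nanog, Sox2, Zfp42, Esrrb and Klf4) were present, at 159 to 1805 CPM in A and 107 to 1542 CPM in B. Dgcr8 itself had 1253 counts (44.95 CPM) in A and 1942 counts (64.0 CPM) in B. A count over the whole gene does not show whether the deleted part is missing, so this does not check the genotype. The 6 primitive endoderm markers summed to 72.4 CPM in A and 216 CPM in B, and none was at 0. The 4 markers of the 2-cell-like state summed to 17.2 CPM in A and 1.55 CPM in B, with 1 of them at 0 in both libraries. The 6 markers of feeder fibroblasts summed to 47.9 CPM in A and 30.1 CPM in B, of which Thy1 alone had 31.4 CPM in A and 21.9 CPM in B. They did not move together. Thy1, Pdgfrb and Col1a1 had the higher CPM in A, and Twist1, Col1a2 and Col3a1 in B. Col1a2 had only 2 counts in A and 7 in B, and Col3a1 1 in A and 5 in B.

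The 100 members held 218993 counts in A and 216859 in B. This was 0.786% of library A (exact 95% Clopper-Pearson interval 0.782 to 0.789) and 0.715% of library B (0.712 to 0.718). The ranked lincRNA counts were almost all theirs, with 98.0% in A and 97.5% in B. Of the 2120 ranked genes, 566 had a count in both libraries, 280 in 1 library and 1274 in neither.

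Within the members the counts were concentrated in few genes. The first, Gm42418, held 74.0% of the member counts in A and 69.4% in B, and the first 10 held 91.7% in A and 89.2% in B. The median member had a mean of 5.31 CPM, and the means ran from 1.98 to 5389 CPM. In both libraries 96 members reached 1 CPM, 23 reached 10 CPM and 5 reached 100 CPM. These 5 were Gm42418, Lncenc1, Malat1, Gm10076 and Gm26917. The 4 members that reached 1 CPM in only 1 library were Gdap10, 2810429I04Rik and Platr20, which were below it in A, and Gm5091, which was below it in B.

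**Figure D1:**
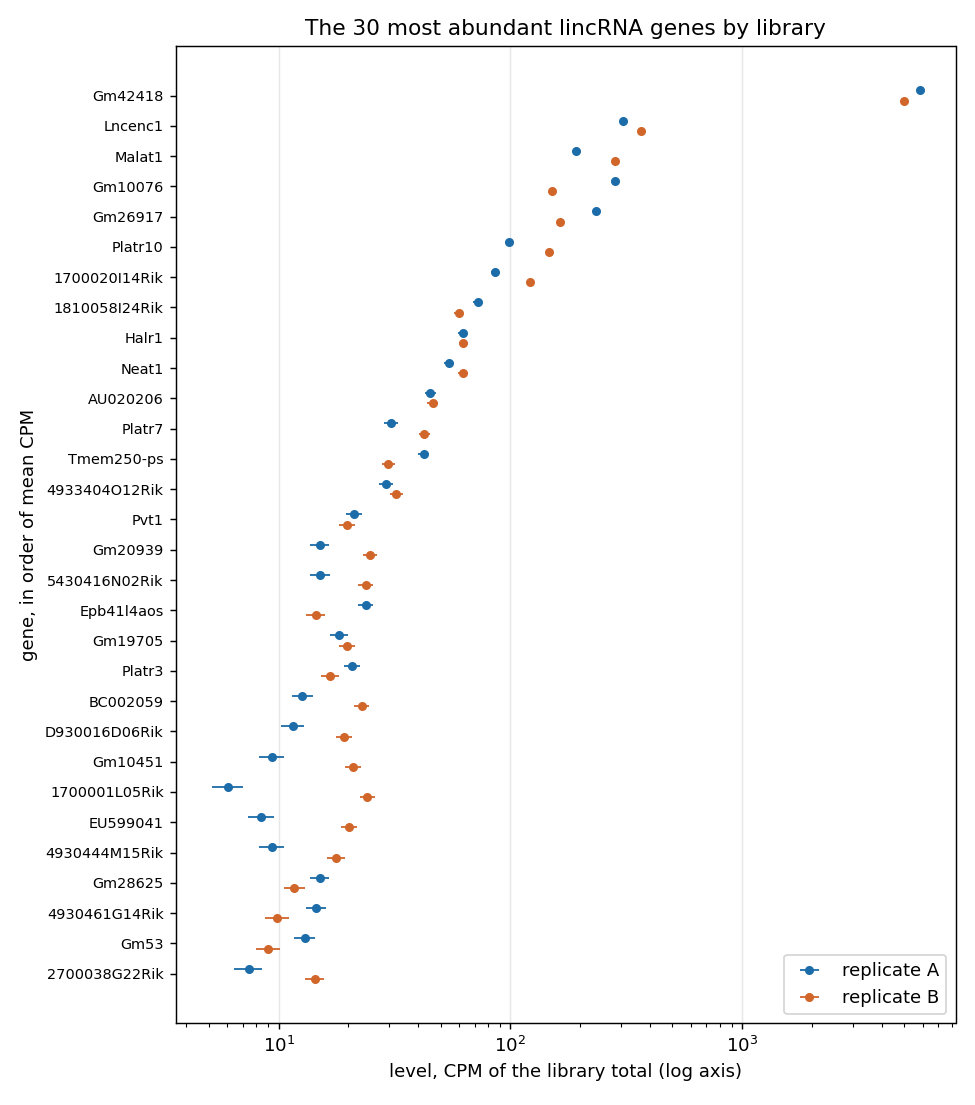
Levels of the 30 most abundant members in replicates A and B, in CPM on a log axis, with genes in order of mean CPM. Points are the counts of 1 library per 1000000 and bars are exact 95% Poisson limits; Gm42418 stands far to the right of all others, at 5817 CPM in A and 4962 CPM in B.

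The rule put its edge among genes of about 2 CPM. Just inside were Gm5113 with 37 counts in A and 82 in B, Platr20 with 24 in A and 96 in B, and AI427809 with 66 in A and 48 in B. Just outside were 4631405K08Rik with 79 counts in A and 33 in B, Gm26779 with 32 in A and 83 in B, and 1700057H21Rik with 35 in A and 78 in B. The mean of the last gene inside was 1.98 CPM and that of the first outside 1.96 CPM. The SD between libraries was 0.555 CPM for the last gene inside, so the order at the edge lies within the spread of the libraries.

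For each gene, the counts of A and B were set against library sizes scaled by TMM in a two-sided exact binomial test. The test ran on the 14583 genes that reached 1 CPM in A, in B or in both, and a Benjamini-Hochberg adjusted p under 0.05 made a call. Of the 100 members, 75 were called, against 76.8% of all genes tested. Higher in A were 21 members, against a background of 38.4%, and higher in B were 54 members, against a background of 38.4%. The share called was thus close to that of all genes, and no test was made of whether the split of the calls between A and B is particular to the members. The median log2 ratio of A over B was -0.26 over the members (SD 0.75, from -2.00 to 1.34) and 0.01 over all genes tested (SD 0.70).

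The share called differed with the level. Among the 69 members with a mean under 10 CPM, 45 (65.2%) were called, 11 higher in A and 34 higher in B, against 63.7% of all genes at that level. Among the 31 members at 10 CPM or more, 30 (96.8%) were called, 10 higher in A and 20 higher in B, against 83.7%. A called difference of at least 2-fold was seen in 19 members, 5 higher in A and 14 higher in B, against 13.9% of all genes tested. The test covers counting error only, and with 1 library on each side it says nothing about a condition.

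**Figure D2:**
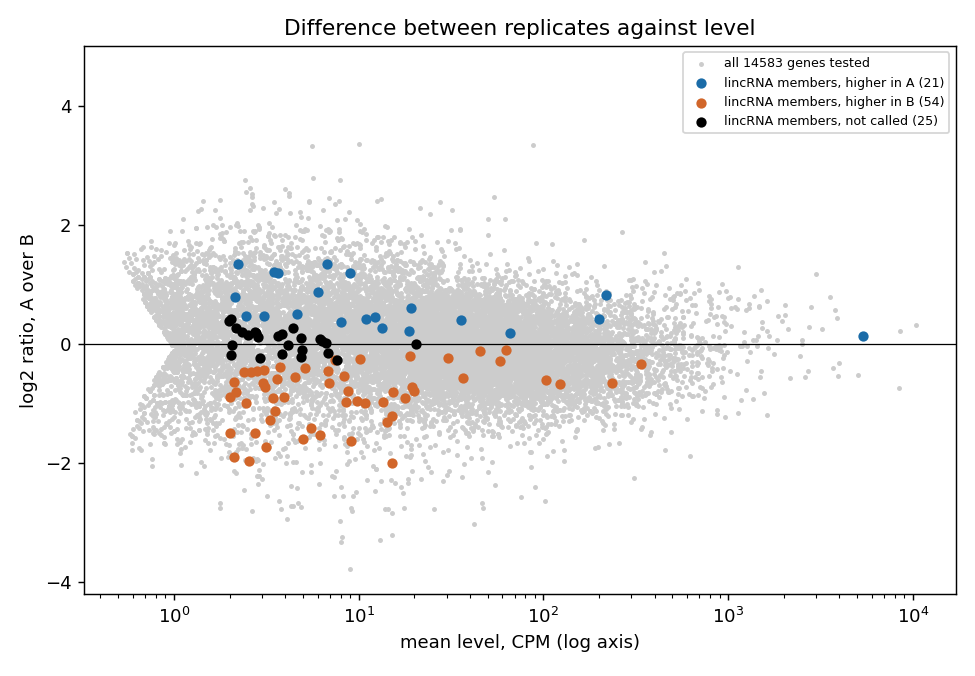
Log2 ratio of A over B against the mean level in CPM (log axis) for the 100 members, coloured by call, over all 14583 genes tested in grey. Members higher in B (54) outnumber those higher in A (21) on both sides of 10 CPM, and of the 25 that were not called only Pvt1 lies over 10 CPM.

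The ratios moved with base composition and length. Across the 100 members, the Spearman rho between the ratio of A over B and the GC content of the longest transcript was 0.45, and it was 0.50 across all genes tested. With transcript length rho was -0.40 across members and -0.35 across all genes tested. These are correlations across genes of the same 2 libraries, given as a description. Of the 30 members under 45% GC, 2 were higher in A and 22 higher in B, with a median log2 ratio of -0.76. Of the 3503 tested genes of that class, 13.5% were higher in A and 64.9% higher in B, with a median of -0.41. Of the 70 members at 45% GC or more, 19 were higher in A and 32 higher in B, with a median of -0.16. Of the 11006 such genes, 46.4% were higher in A and 30.03% higher in B, with a median of 0.15. The median GC content of the members was 47.2%. After a fit on GC content and length over all genes, the median log2 ratio of the members was -0.21. The primitive endoderm markers, which summed to 72.4 CPM in A and 216 CPM in B, moved the same way as most members, and the part of any of these in the calls was not tested. In bulk RNA, fewer cells of a type and less RNA per cell cannot be told apart.

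**Figure D3:**
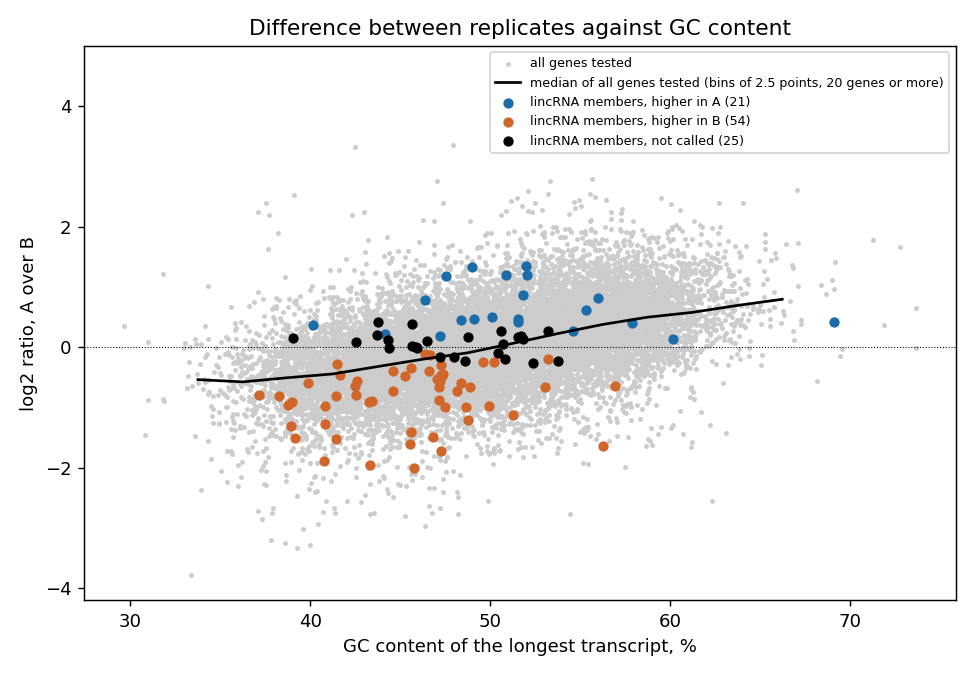
Log2 ratio of A over B against the GC content of the longest transcript, in percent, for the 100 members by call, over all genes tested in grey with their running median as a black line. The line crosses 0 near the middle of the GC range, and of the 30 members under 45% GC 2 were higher in A and 22 higher in B, beside 13.5% and 64.9% of all tested genes of that class.

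The label lincRNA was not uniform in RefSeq. Of the 100 members, 77 were matched in RefSeq (GRCm38.p6), which lists 65 as lncRNA, 8 as protein coding, 3 as pseudogenes and 1 as a transcribed pseudogene. Among the 8 was 1810058I24Rik (synonym Stmp1, which encodes a mitochondrial microprotein), with 2014 counts (72.3 CPM) in A and 1811 counts (59.7 CPM) in B. The others were Tmem250-ps, Gm20939, D930016D06Rik, EU599041, Gm1070, Gm6712 and 4930591A17Rik. Tmem250-ps had 42.2 CPM in A and 29.7 CPM in B, and Gm20939 had 15.0 CPM in A and 24.8 CPM in B.

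Features that the rule did not use are given as counts and medians, with no test. The median transcript length of the members was 1710 bases, against 1018.5 for the other 2020 genes and 1380.5 for those 466 of them with a count in both libraries. A single exon was annotated for 19 members, among them Gm42418, Malat1, Gm10076, Gm26917 and Neat1. In the other ranked genes that share was 7.08%, and in those with a count in both libraries 9.23%. The GC content of the members and of the other ranked genes was alike, with medians of 47.2% and 46.8%.

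The most abundant member lies in a ribosomal RNA repeat. Gm42418 (ENSMUSG00000098178, chr17:39846958-39848788, plus strand, GRCm38, 1 exon) had 5817 CPM in A and 4962 CPM in B, and RefSeq names it Rn18s-rs5, a pseudogene related to 18S ribosomal RNA. It took 0.582% of all counts in A and 0.496% in B. Its whole length is covered on the opposite strand by other annotated genes, with 1244 identical bases shared with an rRNA gene and 923 with the lincRNA gene AY036118. Neither was analysed here. Next to it lies Gm26917 (ENSMUSG00000097971, chr17:39843013-39846341, plus strand), a single exon of 69.1% GC, with 6524 counts (234 CPM) in A and 4983 counts (164 CPM) in B. Ribosomal RNA is the bulk of cellular RNA and is largely removed by selection for poly(A) tails.

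Both repeat genes on the list, 2 measured of 3, were higher in A, as were 38.4% of all genes tested. The log2 ratio of A over B was 0.14 for Gm42418 (exact binomial, Benjamini-Hochberg adjusted p = 1.4e-152) and 0.42 for Gm26917 (adjusted p = 5.6e-53). After the fit on GC content and length these ratios were -0.52 and -0.61, so their direction depends on that correction. Without both genes the members held 0.181% of library A and 0.202% of library B.

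Other members share long stretches of sequence with protein-coding genes, as near copies or by overlap at the same locus. Gm10076 (ENSMUSG00000060143, chr14:105681828-105682211, plus strand, GRCm38) is 384 bases long, is called a pseudogene in RefSeq and shares 383 of its bases with Rpl41, a ribosomal protein gene, at 99.5% identity on the same strand. It had 7904 counts (284 CPM) in A and 4567 counts (151 CPM) in B, while Rpl41 had 1325 CPM in A and 716 CPM in B. The log2 ratio of Gm10076 was 0.82, and 0.29 after the fit on GC content and length. The member and its near copy thus differed the same way, and at this identity the counts of either may hold reads of the other. Gm26825 matches Hspa8, a heat shock cognate gene, over 1940 bases at 99.6% identity on the opposite strand and had 65 counts in A and 113 in B. Gm26582 lies across from G3bp2, a stress granule gene, and shares 1935 bases with it on the opposite strand. Gm26582 had 51 counts in A and 146 in B, and G3bp2 had 579 CPM in A and 1173 CPM in B.

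In all, 19 members shared 20% or more of their longest transcript with another gene, at 95% identity or more over at least 100 bases. This share was 14.6% in the other ranked lincRNA genes and 18.0% in the 466 of them with a count in both libraries. Of the 19, 10 reached 20% on the same strand and 10 on the opposite strand. Whether the counting used the strand and how it treated reads that fit several places is not given in the sources used here, so the counts of these 19 members are uncertain. Gm28625, a single exon of 205 bases with copies in many genes, stood at rank 27 by CPM and at rank 5 by RPKM, with 73.5 RPKM in A and 57.1 RPKM in B.

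**Figure D4:**
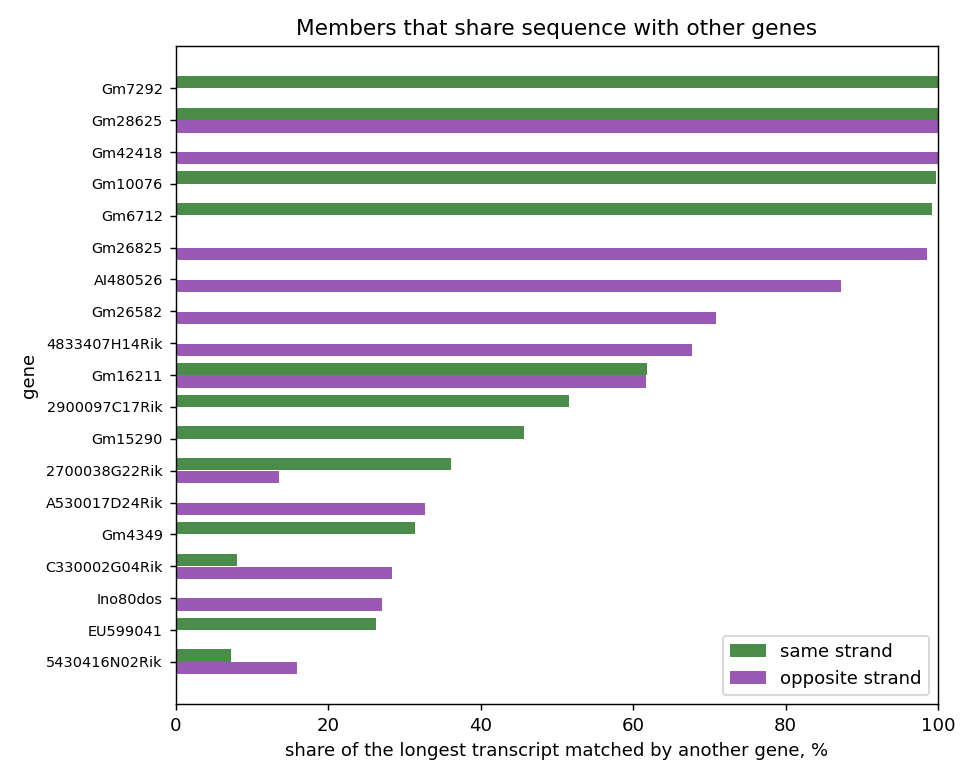
Share of the longest transcript, in percent, that is matched by another gene on the same strand (green) or the opposite strand (purple). Shown are the 19 members where the bases matched on either strand, each base counted once, reach 20%. Gm28625 is matched whole on both strands. Gm7292, Gm10076 and Gm6712 are matched whole or almost whole on the same strand, and Gm42418 and Gm26825 on the opposite strand.

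To order genes by level per length, RPKM was used, counts per kb of exon at a library total of 1000000. By this scale the order was Gm42418 with 3177 RPKM in A and 2710 RPKM in B, Gm10076 with 738 RPKM in A and 392 RPKM in B, and Lncenc1 with 93.1 RPKM in A and 111 RPKM in B. Platr10 followed with 56.5 RPKM in A and 84.1 RPKM in B, a range that overlaps those of Gm28625 and Halr1. Halr1 had 63.3 RPKM in A and 63.9 RPKM in B. Neat1, rank 10 by CPM, fell to rank 59 among members by RPKM, which divides by all 20771 bases of its annotated exons. Shorter transcripts of a gene would have a higher level per length than this scale gives.

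Of the nuclear-retained lincRNAs, Malat1 and Neat1 were members. Malat1, a nuclear speckle RNA, (ENSMUSG00000092341, chr19:5795690-5802672, minus strand, GRCm38) had 5327 counts (191 CPM) in A and 8543 counts (282 CPM) in B. Neat1, an RNA of paraspeckles, (ENSMUSG00000092274, chr19:5824708-5845478, minus strand) had 1511 counts (54.2 CPM) in A and 1894 counts (62.5 CPM) in B. Counts per gene do not show which of its 4 annotated transcripts they came from. Both were lower in A than in B by the exact binomial test, with log2 ratios of -0.65 (Benjamini-Hochberg adjusted p = 1.5e-150) for Malat1 and -0.29 (adjusted p = 5.1e-09) for Neat1. After the fit on GC content and length the ratio of Malat1 was -0.04 and that of Neat1 0.64. For Neat1 the fit used the longest annotated transcript, of 20771 bases. On the list, 4 of 5 genes reached 1 CPM in both libraries and all 4 were higher in B, beside 38.4% of all genes tested.

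Malat1 has no conventional poly(A) tail, since its mature 3′ end is cut by RNase P and then held in a triple helix with an A-rich tract encoded in the gene. The tract stands in the annotated transcript, 298 bases before its annotated end, and is shown because it is the A-rich element of an RNA measured here after selection for poly(A). The stretch below covers positions 6574 to 6693 of the 6983 bases of the GENCODE M21 transcript, with the tract of 12 A in capitals.
Malat1: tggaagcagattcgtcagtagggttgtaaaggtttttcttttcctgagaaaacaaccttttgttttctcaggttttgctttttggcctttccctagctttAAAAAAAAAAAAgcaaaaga

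Of 37 symbols on the pluripotency-associated list, 34 were measured, 17 reached 1 CPM in both libraries and 13 were members. Over the whole list 21 genes were tested, of which 3 were higher in A, 15 higher in B and 3 not called. Of all genes tested 76.8% were called, 38.4% in each direction. Lncenc1 (ENSMUSG00000078952, chr13:97434970-97497007, plus strand, GRCm38, synonym Platr18), which is known in mouse for the naive state of embryonic stem cells, led with 8566 counts (307 CPM) in A and 11094 counts (366 CPM) in B. Platr10 (ENSMUSG00000099370, chr3:75647446-75655731, minus strand) had 2746 counts (98.5 CPM) in A and 4452 counts (147 CPM) in B. Platr7 (chr10:84547417-84553338, minus strand) had 849 counts (30.5 CPM) in A and 1290 counts (42.5 CPM) in B. These 3 genes were higher in B by the exact binomial test, with log2 ratios of -0.34, -0.67 and -0.57. After the fit on GC content and length that of Lncenc1 was -0.18. Enc1, the protein-coding gene nearest to Lncenc1, had 127 CPM in A and 233 CPM in B. Platr3 (chr2:135648907-135652063, plus strand) stood the other way, with 578 counts (20.7 CPM) in A and 504 counts (16.6 CPM) in B.

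Per length, the 12 Platr genes among the members had means from 1.77 RPKM for Platr22 to 70.3 RPKM for Platr10. By the exact binomial test, 7 were higher in B, 2 higher in A (Platr3 and Platr5) and 3 (Platr11, Platr22 and Platr26) were not called, beside 38.4% of all genes tested called in each direction, with a median log2 ratio of -0.55. The widest ratio among those over 5 CPM was that of Platr4, with 86 counts (3.09 CPM) in A and 281 counts (9.27 CPM) in B. Platr6 had 82 counts (2.94 CPM) in A and 246 counts (8.11 CPM) in B. Their log2 ratios were -1.53 and -1.41, and after the fit on GC content and length they were -1.24 and -1.33. Platr27 was higher in B as well, with 7.00 CPM in A and 9.69 CPM in B, as was Platr28, with 2.33 CPM in A and 4.55 CPM in B. Platr genes were 12 of the 100 members and 8 of the other 2020 ranked genes. The list was chosen with these results known and is no independent evidence.

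**Figure D5:**
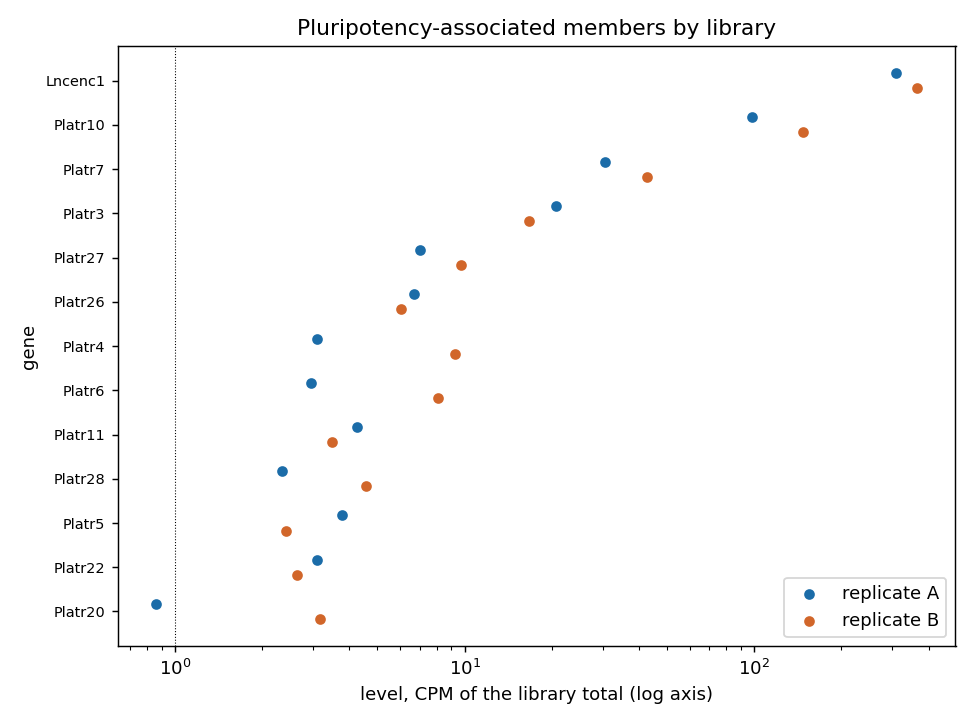
Levels of the 13 pluripotency-associated members in replicates A and B, in CPM on a log axis, with the dotted line at 1 CPM. Lncenc1 and 7 Platr genes had the higher point in B by the test, with the widest gaps at Platr4, Platr6 and Platr20, and Platr3 and Platr5 had the higher point in A.

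1700020I14Rik (ENSMUSG00000085438, chr2:119594297-119607502, plus strand, GRCm38), which RefSeq names Oip5os1 with the synonym Cyrano, had 2382 counts (85.5 CPM) in A and 3689 counts (122 CPM) in B. It is known for 1 extensively paired site for the microRNA miR-7, through which it brings about the decay of that microRNA in mammalian cells. The log2 ratio of A over B was -0.60 (exact binomial, Benjamini-Hochberg adjusted p = 4.1e-57), and it was 0.20 after the fit on GC content and length. The transcript holds 2 matches to the 7-base seed of miR-7. One of them, at positions 2930 to 2959 of the 8300 bases, has 13 further bases in 1 run that pair with the rest of the microRNA. It is shown here because it is the element this lincRNA is known for, beside miR-7a-5p from RefSeq (GRCm38.p6), with the seed (bases 2 to 8) and its match in capitals. MicroRNA levels were not measured.
mmu-miR-7a-5p: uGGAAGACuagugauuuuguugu
1700020I14Rik: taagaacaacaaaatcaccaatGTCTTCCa

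2900097C17Rik (ENSMUSG00000102869, chr2:156388065-156392979, minus strand, GRCm38) is the mouse gene known as Norad, a cytoplasmic RNA that binds Pumilio proteins through many copies of the motif TGTANATA. It had 65 counts (2.33 CPM) in A and 231 counts (7.62 CPM) in B. A further member, Gm7292 (ENSMUSG00000104222, chr6:117716342-117718868, plus strand), is matched over its whole length by 2900097C17Rik, with 99.2% identity over 2537 aligned bases on the same strand. Gm7292 had 35 counts (1.26 CPM) in A and 152 counts (5.01 CPM) in B. Both were lower in A than in B, with log2 ratios of -1.60 and -1.73 (exact binomial, Benjamini-Hochberg adjusted p = 8.4e-22 and 1.1e-17), and how their reads were split between them is uncertain.

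The motif was searched on the transcript strand, with overlapping matches counted. 2900097C17Rik holds 11 matches, 2.24 per kb, and Gm7292 holds 9, 3.56 per kb. A match was found in 23 of the 100 members, in 11.7% of the other ranked lincRNA genes, whose transcripts are shorter, and in 27.4% of protein-coding genes. In the 98 members without this pair there were 0.126 matches per kb, beside 0.103 in the other ranked lincRNA genes and 0.120 in protein-coding genes. The stretch of each transcript that is richest in the motif is shown with the matches in capitals, at positions 2225 to 2466 of 2900097C17Rik and 2198 to 2440 of Gm7292, to show how closely the pair match.
2900097C17Rik: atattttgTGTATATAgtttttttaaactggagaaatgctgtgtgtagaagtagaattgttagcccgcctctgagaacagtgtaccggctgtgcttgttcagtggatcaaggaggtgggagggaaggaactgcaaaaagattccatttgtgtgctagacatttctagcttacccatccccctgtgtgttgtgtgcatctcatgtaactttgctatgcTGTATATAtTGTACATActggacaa
Gm7292: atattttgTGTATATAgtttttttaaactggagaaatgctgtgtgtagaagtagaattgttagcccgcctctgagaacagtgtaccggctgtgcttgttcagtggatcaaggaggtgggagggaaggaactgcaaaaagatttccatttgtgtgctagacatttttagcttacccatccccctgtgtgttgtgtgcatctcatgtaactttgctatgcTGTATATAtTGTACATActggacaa

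Pvt1 (ENSMUSG00000097039, chr15:62037986-62378096, plus strand, GRCm38), a neighbour of the Myc gene, was a further member from the list of protein- and microRNA-binding lincRNAs. By symbol 3 genes of this list were measured, with 2 higher in B and 1 not called. Of all genes tested 38.4% were called higher in B. The count by symbol leaves out 1700020I14Rik, which stands on the list as Oip5os1 and was higher in B as well. Pvt1 had 591 counts (21.2 CPM) in A and 601 counts (19.8 CPM) in B, and it was the only member over 10 CPM that was not called (exact binomial, Benjamini-Hochberg adjusted p = 0.98). Myc, whose start is 52595 bases from that of Pvt1, had 51.2 CPM in A and 88.0 CPM in B.

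Of 14 measured lineage lincRNAs, Halr1 and Bvht were members, and 6 had no count in either library. Of the 5 that were tested, 1 was higher in A, 1 higher in B and 3 were not called, beside 38.4% of all genes tested called in each direction. Halr1 (ENSMUSG00000085412, chr6:52102949-52113684, plus strand, GRCm38), known from the differentiation of mouse embryonic stem cells, had 1732 counts (62.1 CPM) in A and 1902 counts (62.7 CPM) in B. The log2 ratio was -0.11 (exact binomial, Benjamini-Hochberg adjusted p = 0.036), and with library totals alone it was -0.01 and no longer called. Bvht (Braveheart), which is needed for cardiac commitment in mouse, had 361 counts (13.0 CPM) in A and 153 counts (5.04 CPM) in B. Its log2 ratio of 1.19 (exact binomial, Benjamini-Hochberg adjusted p = 8.7e-21) is among the largest in favour of A.

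Several members hold small RNA genes within them on the same strand, microRNAs in 4 members and small nucleolar or Cajal body RNAs in 3, with 2900076A07Rik in both. Epb41l4aos, with 663 counts (23.8 CPM) in A and 438 counts (14.4 CPM) in B, has an intronic snoRNA gene, Gm23639, which had 45 counts in A and 32 in B. 2700038G22Rik, with 207 counts (7.43 CPM) in A and 434 counts (14.3 CPM) in B, has the snoRNA Snord93 in an intron, with 4 counts in A and 26 in B. Small RNAs themselves are mostly lost from libraries of this kind.

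Transcripts that carry microRNA hairpins can be primary microRNA transcripts, the substrate that Dgcr8 binds. In all 4 hosts the hairpins lie in an exon of the longest annotated transcript. The miR-1839 locus is also annotated as a scaRNA, a class of small Cajal body RNA, so it need not be such a substrate.

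One of the hosts holds 3 let-7 hairpins. 6720427I07Rik (ENSMUSG00000097375, chr13:48532905-48546500, minus strand, GRCm38) had 189 counts (6.78 CPM) in A and 390 counts (12.9 CPM) in B. The row of let-7a-1 had 14 counts in A and 28 in B, and the let-7f-1 hairpin had no row. That of let-7d had 0 counts in both, a floor of 0.108 CPM in A and 0.0989 CPM in B at 3 counts. How reads that fit both a hairpin and its host were counted is not given. The rows of hairpins and hosts may therefore miss such reads, which the floor does not cover. E130102H24Rik (chr4:101346531-101356735, minus strand) holds miR-101a and had 198 counts (7.10 CPM) in A and 246 counts (8.11 CPM) in B, a difference that was not called. 4833445I07Rik (chr9:108567533-108569174, plus strand), with miR-191 and miR-425, had 45 counts (1.61 CPM) in A and 80 counts (2.64 CPM) in B. 2900076A07Rik (chr7:81523550-81531498, plus strand), with miR-1839, had 66 counts (2.37 CPM) in A and 98 counts (3.23 CPM) in B. The hosts of let-7, of miR-191 and miR-425 and of miR-1839 were higher in B by the exact binomial test, although that of miR-1839 was no longer called with library totals alone. Among all 100 members 54 were higher in B, as were 38.4% of all genes tested. After the fit on GC content and length the log2 ratio of the let-7 host was -0.28 in place of -0.96, and that of the miR-191 and miR-425 host -1.15 in place of -0.64. The miR-101a host was called higher in B with DESeq2 size factors.

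The mature microRNAs on the 5′ arm of these hairpins, and for miR-101a on the 3′ arm, are shown from RefSeq (GRCm38.p6) with their seeds in capitals, to show which families the transcripts carry. The 3 let-7 microRNAs share the seed GAGGUAG, and the other seeds differ from it and from each other. No level of a mature microRNA was measured.
mmu-let-7a-5p: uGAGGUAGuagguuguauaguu
mmu-let-7d-5p: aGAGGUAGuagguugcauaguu
mmu-let-7f-5p: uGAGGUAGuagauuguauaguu
mmu-miR-101a-3p: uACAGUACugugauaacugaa
mmu-miR-191-5p: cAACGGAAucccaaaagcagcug
mmu-miR-425-5p: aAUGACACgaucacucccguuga
mmu-miR-1839-5p: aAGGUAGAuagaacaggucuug

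Of the called members with a mean of 5 CPM or more, those with the widest ratios are given here where not described above. On the side of B stood 1700001L05Rik with 168 counts (6.03 CPM) in A and 732 counts (24.1 CPM) in B, a log2 ratio of -2.00 (exact binomial, Benjamini-Hochberg adjusted p = 3.3e-81). Gm14230 had 122 counts (4.38 CPM) in A and 417 counts (13.8 CPM) in B, a log2 ratio of -1.63. EU599041 had 234 counts (8.40 CPM) in A and 613 counts (20.2 CPM) in B, a log2 ratio of -1.31. On the side of A stood Gm27204 with 280 counts (10.05 CPM) in A and 104 counts (3.43 CPM) in B, a log2 ratio of 1.34 (exact binomial, adjusted p = 4.7e-20). Gm26829 had 227 counts (8.14 CPM) in A and 120 counts (3.96 CPM) in B, a log2 ratio of 0.87. After the fit on GC content and length each of these 5 ratios kept its sign, at -1.67, -2.18, -0.98, 1.00 and 0.56 in the order given.

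The rest of the 20 most abundant members differed less. AU020206 had 1257 counts (45.1 CPM) in A and 1401 counts (46.2 CPM) in B. 4933404O12Rik had 809 counts (29.0 CPM) in A and 976 counts (32.2 CPM) in B. 5430416N02Rik had 422 counts (15.1 CPM) in A and 720 counts (23.7 CPM) in B. Gm19705, whose nearest protein-coding gene is Zfp281, had 509 counts (18.3 CPM) in A and 597 counts (19.7 CPM) in B. All 4 were higher in B by the exact binomial test, AU020206 by 1.09-fold, Gm19705 by 1.15-fold, 4933404O12Rik by 1.18-fold and 5430416N02Rik by 1.65-fold. Neither AU020206 nor Gm19705 was called with library totals alone. After the fit on GC content and length the log2 ratios were 0.01 for AU020206, -0.60 for Gm19705, -0.18 for 4933404O12Rik and -0.61 for 5430416N02Rik.

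Some members start beside a protein-coding gene. In 15 members the start lies within 1 kb of the start of a protein-coding gene on the opposite strand, as in divergent promoter pairs, against 10.3% of the other ranked lincRNA genes and 19.3% of those with a count in both libraries. Of 14 partners that could be tested, 13 had the higher level per length, with a median of 2.69 times the RPKM of the lincRNA. The partner left out, 1600014C23Rik, was too low to be tested. It had a mean of 0.194 RPKM, below the 0.525 RPKM of its member F630040K05Rik. The pair's ratios of A over B had the same sign in 9 of 14 pairs. Both were called the same way in 5 pairs and opposite ways in 4. Of all genes tested 76.8% were called, 38.4% in each direction, and whether pairs agree more than other genes was not tested. Gm14230, the member with one of the widest ratios, starts 115 bases from Tgif2, a transcriptional repressor gene, which had 73.3 CPM in A and 61.6 CPM in B. For 10 members the nearest protein-coding gene is named Zfp (zinc finger protein). This share was 3.17% in the other ranked genes and 4.08% in those with a count in both libraries.

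Promoters from 250 bases before to 50 after a start were found in RefSeq (GRCm38.p6) for 60 members, 68 promoters in all. They were searched on both strands for the octamer ATGCAAAT, which POU proteins such as Pou5f1 bind. It was found in 5 of the 68 promoters (7.35%), against 1.74% of 32851 promoters of all genes. Other motifs searched were TATAAA, in 4.41% of member promoters and 13.6% of all, and CCGGAAG, in 17.6% of member promoters and 8.86% of all. Each motif was counted on its own, whether or not it overlapped another. A match describes these letters only. The 5 matches, all on the strand of the gene, are shown with 11 bases on either side and the octamer in capitals.
2700038G22Rik, chr5:23850370-23850399, plus strand: attttgagcacATGCAAATatcacagacag
4833407H14Rik, chr19:53460565-53460594, plus strand: tgcctactcatATGCAAATtaacttgtaaa
Gm10451, chr12:76444448-76444477, plus strand: ctgctcccacaATGCAAATcaacttcacaa
Gm20939, chr17:94864695-94864724, plus strand: gaaatacaaaaATGCAAATccctgtagatc
Tmem250-ps, chr2:26139560-26139589, minus strand: ttttcccccatATGCAAATtaacataggct

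The octamer began 35 bases before the RefSeq start in Tmem250-ps, 38 in Gm10451, 46 in 4833407H14Rik, 195 in Gm20939 and 216 in 2700038G22Rik. In GENCODE M21 the minus-strand gene Tmem250-ps spans chr2:26136814-26140521, so there its octamer lies inside the gene. Of these 5 genes, Tmem250-ps was higher in A, and the other 4 were higher in B. Among all 100 members 21 were higher in A and 54 higher in B, beside 38.4% of all genes tested in each direction. A link of the octamer to the calls was not tested. Gm10451 had 261 counts (9.36 CPM) in A and 633 counts (20.9 CPM) in B, and 4833407H14Rik had 81 counts (2.91 CPM) in A and 132 counts (4.35 CPM) in B.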

How the data were processed

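Polyadenylated RNA of 2 libraries of 1 group was measured. Each deposited file holds the counts of 1 library per Ensembl gene as whole numbers, which the authors had not normalized. Tools named in the submitters' processing notes are featureCounts 1.4.5-p1 and STAR 2.4.2a, and the build is mm10, with no roles. How strand and multiply mapped reads were handled is not given in the sources used here.

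Biotypes, positions, transcripts and GC content came from GENCODE M21, to which 42548 of 43629 genes were matched (99.8% of the counts of each library). Unmatched genes held 0.183% of counts in A and 0.179% in B. CPM used library totals and RPKM the union of exons. The test was an exact two-sided binomial test with library sizes scaled by TMM (factors 1.03 for A and 0.968 for B, edgeR 4.0.16 in R 4.3.3). It was run in SciPy 1.17.1, with Benjamini-Hochberg adjustment over 14583 genes. Log2 ratios were taken after adding 0.5 to each TMM-scaled CPM, which understates low genes. Near copies were sought with BLAST+ 2.17.0. Intervals and floors (3 counts at a count of 0) cover counting error only, since reads are not independent molecules.

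The members, lists and tests were chosen with earlier results of these data known. Named are Dgcr8, the 20 members of highest mean CPM, the 5 largest and 5 smallest called log2 ratios at 5 CPM or more, list members, members with small RNA genes inside, and the 3 genes on either side of rank 100. Other genes were named after their values or sequences were seen. Alternatives were library totals, size factors of DESeq2 1.42.0, other filters and pseudocounts, Fisher's exact test, a fit on GC content and length, RPKM ranks and leaving out a replicate.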

Additional observations from a re-analysis of the deposited data

How the results depend on the processing

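The number of members called was 75 with TMM scaling and lay between 53 and 76 under the other scalings, filters and Fisher's test, where 53 came with a filter of 5 CPM, which tests 60 members. Library totals gave 23 members higher in A and 43 higher in B and moved the median log2 ratio of all genes tested to 0.10. The share of calls higher in A then was 34.8% in members and 57.0% in all genes, and with TMM it was 28.0% and 49.99%. Leaving out the 19 members that share sequence with other genes, an alternative chosen after seeing the data, left 58 calls of 81, 17 higher in A and 41 higher in B. The median log2 ratio of the members ran from -0.27 to -0.17 over its alternatives. The share of counts averaged 0.750% of a library and was 0.192% without the ribosomal-repeat genes, and 0.715% to 0.786% when 1 replicate was left out. The median level of 5.31 CPM was 3.27 on the RPKM scale and 5.18 to 5.26 CPM when 1 replicate was left out. Ranking by RPKM shared 81 of the 100 members, ranking by TMM-scaled CPM 99, and ranking without A or without B 93 and 91. After the fit on GC content and length, 8 of 43 named log2 ratios changed sign. Those of 6 called genes changed to -0.52 for Gm42418, -0.61 for Gm26917, 0.20 for 1700020I14Rik, 0.64 for Neat1, 0.0116 for AU020206 and -0.0614 for Tmem250-ps, and those of 2 genes that were not called to -0.23 for Platr26 and -0.15 for Platr11. With DESeq2 size factors that of Pvt1, which was not called, was -0.00945. The cause was not tested. No paired analysis was possible because there is only 1 group, and the test between both libraries gives no value once either is left out. Without a further library, differences between A and B cannot be told apart from sampling, culture or library preparation, and members under 10 CPM are limited by their counts.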
